A study of Mus musculus with 2 samples.

Results

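Amyloid precursor protein, its relatives and the proteases that cut it were described here in embryonic mouse forebrain through 9 genes, taken by name from the 55536 genes of the GENCODE M21 annotation. App encodes the amyloid precursor protein, and Aplp1 and Aplp2 encode its relatives. Bace1 encodes the beta-secretase. Psen2 (a presenilin, the catalytic subunit), Ncstn (nicastrin, which receives the substrate), Psenen (the presenilin enhancer, which completes the complex) and Aph1a (the scaffold) encode subunits of gamma-secretase. Apbb1 encodes Fe65, a cytosolic adaptor that binds the tail of App. The members are not all genes of the complex, so a sum over them is not the amount of enzyme.

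The forebrains came from B6NCrl mouse embryos of mixed sex at embryonic day 12.5, described in the labels as healthy, with no genotype or treatment named. Pool 1 combined 120 embryos and pool 2 combined 68 embryos, and each pool gave 1 library of polyadenylated RNA made from 10 ng by oligo-dT priming and full-length PCR amplification. The labels name these as biological replicates of 1 group with nothing to compare, so levels are given for each pool, no test was run, and each ± gives the SD of n = 2 pools, which hold pooled animals and not single embryos. The library of pool 1 held 33373843 counts over genes and that of pool 2 held 34406648. Levels are the TPM that the authors deposited, an abundance corrected for transcript length and set to the same total in each library. All 4 forebrain markers, all 4 neuronal markers and all 4 radial glia markers were detected, meaning that the TPM was 1 or more in each pool, and 0 of 4 hindbrain markers and 0 of 4 markers of mature astrocytes and myelin were. The tissue was not pure neural tissue: the 3 erythroid markers (Hba-x, Hbb-y and Alas2) summed to 5908 TPM in pool 1 against 7990 TPM in pool 2, and the 3 mesenchymal and meningeal markers to 562 TPM in pool 1 against 676 TPM in pool 2. The 3 endothelial markers summed to 47.7 TPM in pool 1 against 46.3 TPM in pool 2. For the 3 markers of microglia and macrophages the sums were 22.6 TPM in pool 1 and 25.2 TPM in pool 2. In such bulk samples, fewer cells of a type and less RNA per cell cannot be told apart.

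App and its relatives are single-pass membrane proteins with a large outer part and a short cytosolic tail. Cleavage of the outer part, by an alpha-secretase or by the beta-secretase, leaves a stub in the membrane that gamma-secretase cuts to release the tail, and only App holds the amyloid-beta stretch. Neurons mainly make an App form without the Kunitz domain, a fold that inhibits serine proteases, while many other cell types include the exon for it. Mice that lack single family members live, whereas loss of Aplp2 together with App or Aplp1 is lethal after birth, and the developing brain uses the family in cell adhesion, neuronal migration and synapse formation.

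The optional coding exons carry much of what follows, so their sequences are given first. App (ENSMUSG00000022892.11) lies at chr16:84949685-85173766 on the minus strand of GRCm38, and Aplp2 (ENSMUSG00000031996.17) at chr9:31149557-31211815, also on the minus strand. Each has a Kunitz exon of 168 bases that some transcripts skip, at chr16:85043576-85043743 in App and chr9:31167561-31167728 in Aplp2. The pair is shown because the exon marks the main choice between forms in both genes. Sequences are the GENCODE M21 transcripts, 5′ to 3′, and capitals mark bases that the paired exons share when laid side by side without gaps.
App Kunitz exon: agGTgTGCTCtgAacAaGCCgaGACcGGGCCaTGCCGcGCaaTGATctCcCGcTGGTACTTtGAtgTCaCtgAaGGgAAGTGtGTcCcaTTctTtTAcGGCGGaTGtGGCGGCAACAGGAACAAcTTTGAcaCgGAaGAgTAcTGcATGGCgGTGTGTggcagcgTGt
Aplp2 Kunitz exon: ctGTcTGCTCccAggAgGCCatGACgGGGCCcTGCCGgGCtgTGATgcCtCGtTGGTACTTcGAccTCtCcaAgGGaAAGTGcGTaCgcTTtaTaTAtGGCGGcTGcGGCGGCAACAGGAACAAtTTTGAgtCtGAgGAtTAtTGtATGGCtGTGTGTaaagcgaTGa
The exons were identical at 114 of 168 bases, or 67.9%. Aplp1 had 1 annotated protein-coding transcript, which lacked such an exon. Away from it the 3 genes shared 4 consecutive coding exons of 75, 159, 129 and 100 bases, and over these 463 bases App and Aplp2 were 69.8% identical, App and Aplp1 60.7%, and Aplp2 and Aplp1 60.7%.

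Further optional exons are short and are shown with 12 bases of the neighbouring exons on each side, the optional exon in capitals and the flanks in lower case. In App, 57 bases at chr16:85040251-85040307 may follow the Kunitz exon and encode a stretch resembling the OX-2 antigen. An exon of 54 bases at chr16:84971408-84971461 lies before the part that encodes the membrane span, and skipping it creates a site where chondroitin sulfate can be attached. In Aplp2 an exon of 36 bases at chr9:31156190-31156225 lies in the like place, and its absence has the same known effect. Apbb1 (ENSMUSG00000037032.16, chr7:105558483-105581653, minus strand) has a microexon of 6 bases at chr7:105565946-105565951, which in rat is known as a neuronal exon.
App exon after the Kunitz exon: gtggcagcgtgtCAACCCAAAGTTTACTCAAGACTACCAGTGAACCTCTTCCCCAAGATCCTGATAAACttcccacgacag
App exon near the membrane: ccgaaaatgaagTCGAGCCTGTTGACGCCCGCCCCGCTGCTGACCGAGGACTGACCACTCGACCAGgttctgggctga
Aplp2 exon near the membrane: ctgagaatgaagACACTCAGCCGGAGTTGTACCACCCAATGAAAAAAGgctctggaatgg
Apbb1 microexon: ggacagtggaagAGAGAGggactttgccta

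All 9 genes were detected, beside 58.9% of 22028 annotated protein-coding genes, and 8 of 9 reached a TPM of 10 in both pools, beside 40.2% of protein-coding genes. The median of the 9 mean levels was 112 TPM, and the median of the 12966 detected protein-coding genes was 21.9 TPM. On the same build Aplp1 lies at chr7:30434982-30445535 and Psenen at chr7:30561863-30563627, both on the minus strand. Ncstn lies at chr1:172066013-172082795 and Psen2 at chr1:180227004-180263438, also on the minus strand. Bace1 at chr9:45838580-45864399 and Aph1a at chr3:95893969-95898288 are on the plus strand. By total TPM in M21, the precursors stood at the top and the adaptor and 2 of the gamma-secretase subunits below them. The beta-secretase and the remaining subunits stood lowest. The place of Aplp2 above Apbb1 did not hold in other settings. In the older annotation, GENCODE M4, Apbb1 averaged 129 TPM against 124 TPM for Aplp2. Over protein-coding transcripts Apbb1 averaged 115 TPM against 112 TPM for Aplp2.

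**Figure D1:**
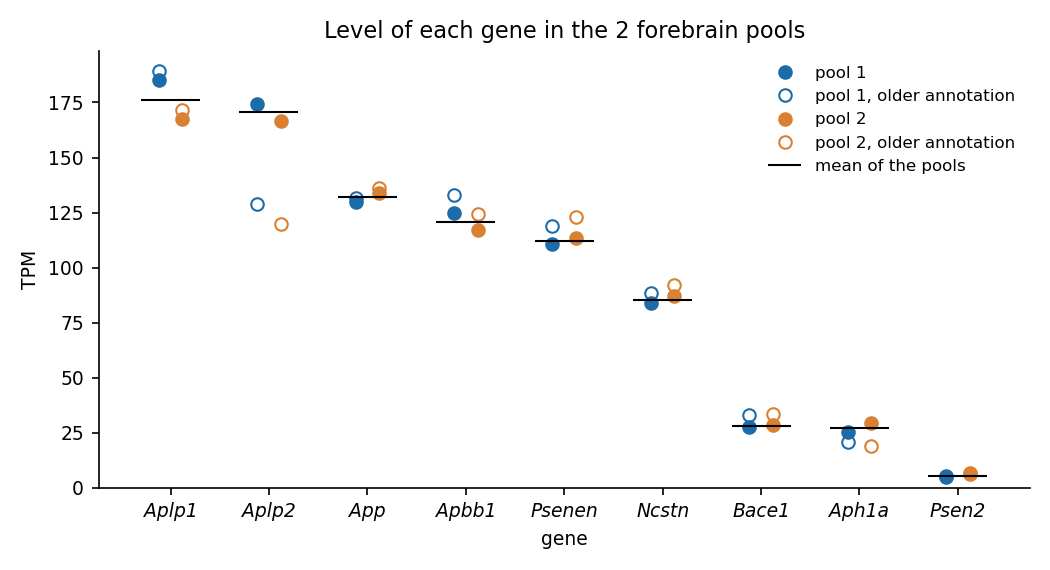
Level of each gene in TPM (vertical axis), with 1 filled point per pool, open points for the same pool in the older annotation (GENCODE M4) and a line at the mean of the pools in M21. Aplp1 and Aplp2 stand highest and overlap in M21, Psen2 stands lowest at 5.58 TPM, and Aplp2 and Aph1a are the genes whose open points lie clearly below the filled ones.

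Of the precursors, Aplp1, whose protein is found mainly in neurons, read 185 TPM in pool 1 against 167 TPM in pool 2, a mean of 176 ± 12.6 TPM. Aplp2, a broadly expressed relative, read 174 TPM in pool 1 against 167 TPM in pool 2, a mean of 170 ± 5.27 TPM. Their ranges overlapped, so the order of these relatives was not resolved. App read 129.65 TPM in pool 1 against 134.09 TPM in pool 2, a mean of 132 ± 3.14 TPM, which placed it below both relatives in each pool and at rank 1198 of 22028 protein-coding genes. Its neighbours in level were Ppm1g, a protein phosphatase, at a mean of 132.16 TPM above it and Dctn3, a dynactin subunit, at 131.845 TPM below it. The expected counts behind these levels were 8409 in pool 1 and 9118 in pool 2 for App, 8730 in pool 1 and 8238 in pool 2 for Aplp1, and 9279 in pool 1 and 8970 in pool 2 for Aplp2.

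The 3 precursors summed to 489 TPM in pool 1 against 468 TPM in pool 2. App made up 26.5% of that sum in pool 1 and 28.6% in pool 2, so that relatives of App gave most of the family's RNA in both pools. Aplp1 took 37.9% in pool 1 and 35.7% in pool 2, and Aplp2 took 35.6% in both. The order below Aplp1 depended on which transcripts are counted. With protein-coding transcripts only, Aplp1 averaged 173 ± 11.7 TPM, App 127 ± 2.45 TPM and Aplp2 112 ± 5.49 TPM, and in the older annotation App, at 134 ± 3.12 TPM, also stood above Aplp2, at 124 ± 6.37 TPM. App was then 30.8% of the family (coding transcripts) or 30.6% (older annotation).

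Bace1, the beta-secretase that makes the first cut on the way to amyloid-beta, read 27.65 TPM in pool 1 against 28.58 TPM in pool 2, a mean of 28.1 ± 0.658 TPM. By total TPM in M21, the summed precursors were 17.7 times as high as Bace1 in pool 1 and 16.4 times as high in pool 2. The alpha-secretase genes, which start the other route, were all detected. Adam10, the main alpha-secretase of neurons, read 62.41 TPM in pool 1 against 61.67 TPM in pool 2, while Adam17, the tumour necrosis factor convertase, read 26.28 TPM in pool 1 against 30.78 TPM in pool 2, and Adam9 20.24 TPM in pool 1 against 19.04 TPM in pool 2. Adam10 therefore stood above Bace1 in both pools, and the range of Adam17 enclosed that of Bace1. Bace2, the relative of Bace1, was near the lower end of detection at 1.60 TPM in pool 1 against 1.49 TPM in pool 2.

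Among the gamma-secretase subunits, Psenen read 110.89 TPM in pool 1 against 113.24 TPM in pool 2, a mean of 112 ± 1.66 TPM. Ncstn read 83.78 TPM in pool 1 against 87.15 TPM in pool 2, a mean of 85.5 ± 2.38 TPM. Aph1a read 25.15 TPM in pool 1 against 29.38 TPM in pool 2, a mean of 27.3 ± 2.99 TPM, a range that overlapped Bace1. Over protein-coding transcripts Aph1a averaged 25.6 TPM, above Bace1 at 19.1 TPM. In the older annotation it averaged 19.7 TPM, below Bace1 at 33.4 TPM. Psenen and Ncstn, subunits of every complex, thus stood above Aph1a, which has alternatives, in both pools. Psen2 was the lowest of the 9 genes, at 5.00 TPM in pool 1 against 6.15 TPM in pool 2, a mean of 5.58 ± 0.813 TPM, from 189 expected counts in pool 1 and 185 in pool 2. Even so it was well above the 0.0793 TPM that 3 counts would give in pool 1 and the 0.0998 TPM in pool 2. Ncstn stood 16.8 times as high as Psen2 in pool 1 and 14.2 times as high in pool 2. Within the sum of these 4 subunits, 225 TPM in pool 1 against 236 TPM in pool 2, Psenen took 49.3% in pool 1 and 48.0% in pool 2, and Psen2 2.22% in pool 1 and 2.61% in pool 2. Aph1b, the alternative scaffold, read 17.55 TPM in pool 1 against 15.99 TPM in pool 2, and its close copy Aph1c 1.74 TPM in pool 1 against 1.30 TPM in pool 2; the reads of these copies may have been split between them in the authors' counting, so their separate levels are uncertain.

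Apbb1, the Fe65 adaptor, read 124.99 TPM in pool 1 against 116.87 TPM in pool 2, a mean of 121 ± 5.74 TPM, close below App. Its relatives were lower in both pools. Apbb2 averaged 43.0 ± 1.56 TPM and Apbb3 28.7 ± 2.09 TPM. Of the Mint adaptors, which bind the same tail, the neuronal Apba2 averaged 80.9 ± 3.20 TPM, the ubiquitous Apba3 25.1 ± 1.14 TPM, and Apba1, also neuronal, 2.05 ± 0.156 TPM. Apbb1 among the Fe65 genes and Apba2 among the Mint genes were therefore each above their relatives in both pools. Kat5, the acetyltransferase that Fe65 brings together with the App tail, averaged 55.8 ± 6.20 TPM. Other adaptors of that tail were Mapk8ip1, a kinase scaffold, at 65.2 ± 0.290 TPM, Dab1, which relays Reelin signals, at 61.9 ± 1.46 TPM, and the Notch antagonist Numb at 26.0 ± 0.184 TPM.

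Of the 48 pathway genes listed beside the members, 48 were detected, beside 58.9% of protein-coding genes, and 37 reached a TPM of 10 in both pools, beside 40.2%. The 9 genes of assembly and trafficking had a median of 91.9 TPM. The highest was Rtn3, a reticulon that binds the beta-secretase, at 310 ± 13.7 TPM, followed by Itm2b, a membrane protein that limits App cleavage, at 273 ± 17.3 TPM, and Tmed10, a cargo receptor that associates with gamma-secretase, at 165 ± 2.91 TPM. The lowest were the sorting receptors Sorcs2 at 8.37 ± 0.361 TPM and Sorcs1 at 5.59 ± 0.884 TPM. The 14 other substrates of gamma-secretase had a median of 42.2 TPM, led by Cdh2 (N-cadherin) at 217 ± 13.5 TPM, Efnb1 (an ephrin ligand) at 80.1 ± 3.49 TPM, Dll1 (a Notch ligand) at 73.2 ± 4.65 TPM and Lrp1 (a lipoprotein receptor) at 63.7 ± 0.389 TPM. Jag2, another Notch ligand, was lowest at 4.59 ± 0.325 TPM, next to the receptor Erbb4 at 6.47 ± 0.410 TPM. App thus exceeded all of these substrates but Cdh2 in both pools. The 8 secreted or surface partners had the lowest list median, 11.6 TPM, with Cntn2, an axonal adhesion protein, at 29.1 ± 0.354 TPM, the guidance cue Slit2 at 27.2 ± 0.884 TPM, Reln, the matrix protein of Cajal-Retzius cells, at 20.2 ± 1.08 TPM, and Cntn4 at 2.01 ± 0.134 TPM.

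Most App RNA in these forebrains was of the form without the Kunitz domain. Of 11 annotated App transcripts, 6 are protein-coding, and App-201, which encodes 695 amino acids, skips the Kunitz exon and the exon after it and keeps the exon near the membrane, read 99.70 TPM in pool 1 against 99.35 TPM in pool 2. It held 79.8% of the protein-coding TPM of App in pool 1 and 77.4% in pool 2. The 2 transcripts with the Kunitz exon alone held 11.9% in pool 1 and 12.3% in pool 2, and the 3 transcripts with both it and the next exon 8.28% in pool 1 and 10.3% in pool 2. The Kunitz exon was therefore in 20.2% of App coding TPM in pool 1 and 22.6% in pool 2, averaging 21.4 ± 1.71%. By counts the share was 21.5% in pool 1 (exact 95% binomial interval 20.6% to 22.4%) and 24.6% in pool 2 (23.7% to 25.5%). These intervals count every read of the App coding transcripts, also those away from the exon. They leave out the model that shares reads among transcripts as well. They are therefore too narrow, and that they did not overlap is not taken as a difference between the pools.

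**Figure D2:**
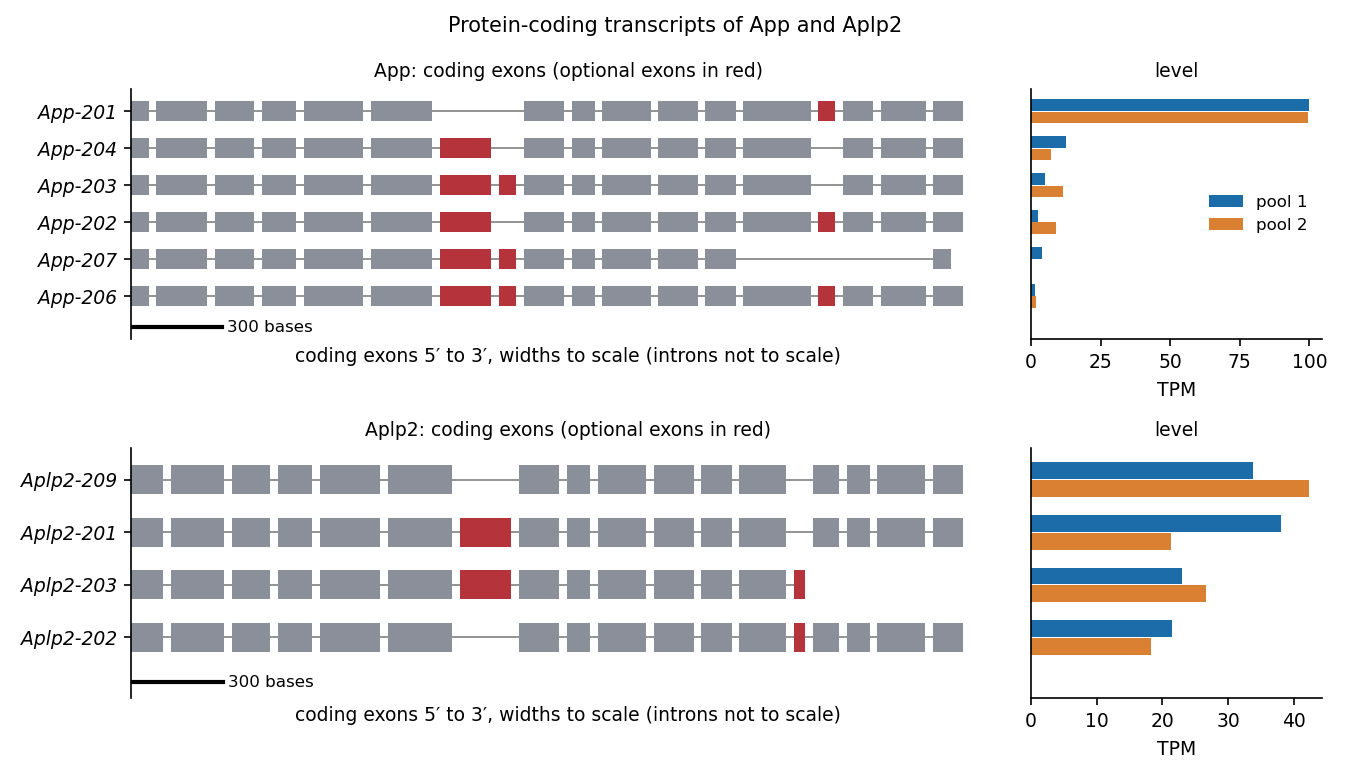
Protein-coding transcripts of App (top) and Aplp2 (bottom), with coding exons drawn to scale in bases from 5′ to 3′, optional exons in red, and TPM per pool in bars at the right. App-201 is the longest bar in both pools at about the same level, while Aplp2 is spread over 4 transcripts, of which Aplp2-203 ends early.

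Among transcripts with the Kunitz exon, the exon that may follow it was held by 41.1% of TPM in pool 1 and 45.4% in pool 2, averaging 43.2 ± 3.06%. The exon near the membrane was held by 85.5% in pool 1 and 85.7% in pool 2, averaging 85.6 ± 0.138%, leaving 14.5% in pool 1 and 14.3% in pool 2 for the form with the chondroitin sulfate site. The annotation ties this share to that of the Kunitz exon. App-203 and App-204, the only coding transcripts counted as skipping the exon near the membrane, both hold the Kunitz exon. App-201, the only one without the Kunitz exon, keeps it, so no annotated form lacks both. These exon shares were closer between the pools than the single minor transcripts. App-204 read 12.52 TPM in pool 1 against 7.01 TPM in pool 2, App-203 5.05 TPM in pool 1 against 11.40 TPM in pool 2, App-202 2.32 TPM in pool 1 against 8.82 TPM in pool 2, and App-207 4.04 TPM in pool 1 against 0 TPM in pool 2. The coding parts of App-202, App-203 and App-204 differ only in the short exons of 57 and 54 bases. App-207, which holds the Kunitz exon, differs more. It lacks the coding exons of 222, 54, 101 and 147 bases and encodes 582 amino acids. Its last coding exon holds 59 coding bases, against 99 in App-201. Because it lacks the neighbours too, it was not counted for the exon near the membrane. The deposited posterior SD of the minor transcripts' counts was wide. App-202 had a posterior mean of 284 counts with an SD of 143 in pool 1, and 534 with an SD of 205 in pool 2. App-201 had 6473 with an SD of 102 in pool 1 and 6743 with an SD of 123 in pool 2. The difference between the pools in App-202 was thus on the scale of that uncertainty, and the order of the minor transcripts was not resolved.

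Aplp2 had no single leading form. Its protein-coding transcripts were Aplp2-209, without either optional exon, at 33.73 TPM in pool 1 against 42.25 TPM in pool 2, Aplp2-201, with the Kunitz exon, at 38.10 TPM in pool 1 against 21.30 TPM in pool 2, Aplp2-202, with the short exon near the membrane, at 21.38 TPM in pool 1 against 18.24 TPM in pool 2, and Aplp2-203, which holds both and ends within the coding part, at 23.02 TPM in pool 1 against 26.67 TPM in pool 2. The first in order was thus Aplp2-201 in pool 1 and Aplp2-209 in pool 2. The Kunitz exon was held by 52.6% of Aplp2 coding TPM in pool 1 and 44.2% in pool 2, averaging 48.4 ± 5.91%. In each pool Aplp2 included its Kunitz exon more often than App did, and the ranges of the 2 genes did not overlap. The Aplp2 share counts the partial transcript Aplp2-203, however. It gave 23.02 of the 61.12 TPM with the Kunitz exon in pool 1 and 26.67 of the 47.97 TPM in pool 2. Without it, Aplp2-201 is the only coding transcript left with the exon. That is 38.10 TPM against 55.11 TPM skipping in pool 1, and 21.30 TPM against 60.49 TPM skipping in pool 2. For App the values were 25.18 TPM against 99.70 TPM in pool 1 and 28.99 TPM against 99.35 TPM in pool 2. The contrast with App is therefore smaller without Aplp2-203, above all in pool 2, and shares were not computed that way. The short exon near the membrane was in 22.9% of the TPM of coding Aplp2 transcripts that cover both neighbours in pool 1 and 22.3% in pool 2, averaging 22.6 ± 0.450%, so that, among coding transcripts that cover the place, those of Aplp2 mostly skipped it and those of App mostly kept the exon in the like place. That value leaves out Aplp2-203, which ends at the exon, and with it counted the mean was 39.8%.

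**Figure D3:**
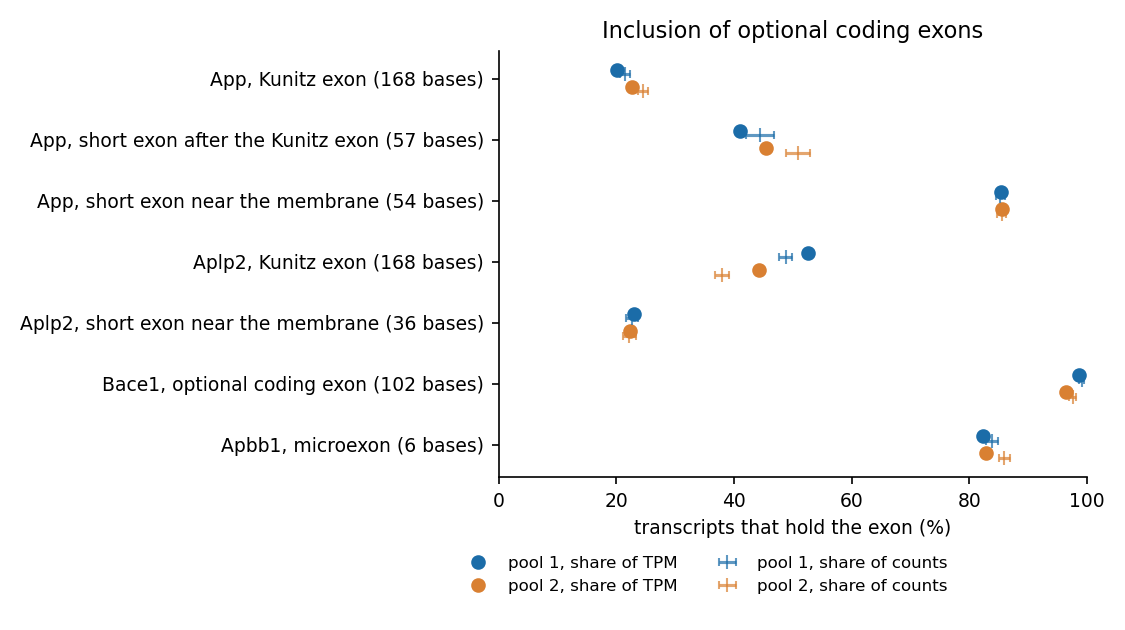
Share of transcripts that hold each optional coding exon (horizontal axis, %), for pool 1 above pool 2. Points give the share of TPM, and ticks the share of expected counts with exact 95% binomial intervals. The intervals count all reads of the transcripts, also those away from the exon, and are too narrow for the exon share. The App Kunitz exon lies at 20.2% and 22.6% of TPM and that of Aplp2 at 52.6% and 44.2%, and the exon near the membrane lies above 85% in App and near 22% in Aplp2.

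The exon shares that follow are of the TPM of coding transcripts that cover both neighbours, not of the whole gene. The Apbb1 microexon was in 82.4% of that TPM in pool 1 and 82.9% in pool 2, averaging 82.7 ± 0.354%, and was picked for description after the transcripts had been seen. The leading Apbb1 transcript, Apbb1-219, which holds the microexon, took 58.2% of the TPM of all Apbb1 transcripts in pool 1 and 59.4% in pool 2. An optional Bace1 exon of 102 bases was in 98.7% of the TPM of such coding transcripts in pool 1 and 96.5% in pool 2. Nearly all coding Bace1 RNA was thus of the full form, Bace1-201, which encodes 501 amino acids. An optional Psenen exon of 105 bases was in 99.5% in both pools.

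The genes differed in how much of their TPM was assigned to transcripts that encode a protein. Protein-coding transcripts held 93.7% or more of the summed TPM of both pools in App, Aplp1, Apbb1, Psenen and Aph1a, against 78.6% in Ncstn, 70.9% in Psen2, 68.0% in Bace1 and 65.9% in Aplp2. In Aplp2, 6 transcripts annotated with a retained intron held 33.3% in pool 1 and 35.0% in pool 2. Most of that was Aplp2-207 at 33.35 TPM in pool 1 against 35.57 TPM in pool 2, which has 1877 bases, only 146 of them in no other Aplp2 transcript. In Bace1, the retained-intron transcript Bace1-204, named here after its values were seen, held 26.7% in pool 1 and 37.3% in pool 2, and 1086 of its 3146 bases overlap exons of other genes. Only 165 of its bases are in no other Bace1 transcript, and 0 of those overlap another gene. Ncstn had 16.4% in pool 1 and 20.0% in pool 2 in retained-intron transcripts. In Psen2 the share of coding transcripts was 84.2% in pool 1 and 60.1% in pool 2, a difference that rests on Psen2-207, a short non-coding transcript singled out after its values were seen, with 0 counts in pool 1 and 20.6 in pool 2. In Aph1a the leading transcript was Aph1a-202 by TPM, at 38.9% in pool 1 and 35.6% in pool 2, but Aph1a-201 by counts. The transcript Aph1a-203, only 286 bases long and also chosen after its values were seen, gave 6.20 TPM in pool 1 against 10.36 TPM in pool 2 from 24.6 counts in pool 1 and 42.8 in pool 2, a difference nearly as large as that of the whole gene.

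**Figure D4:**
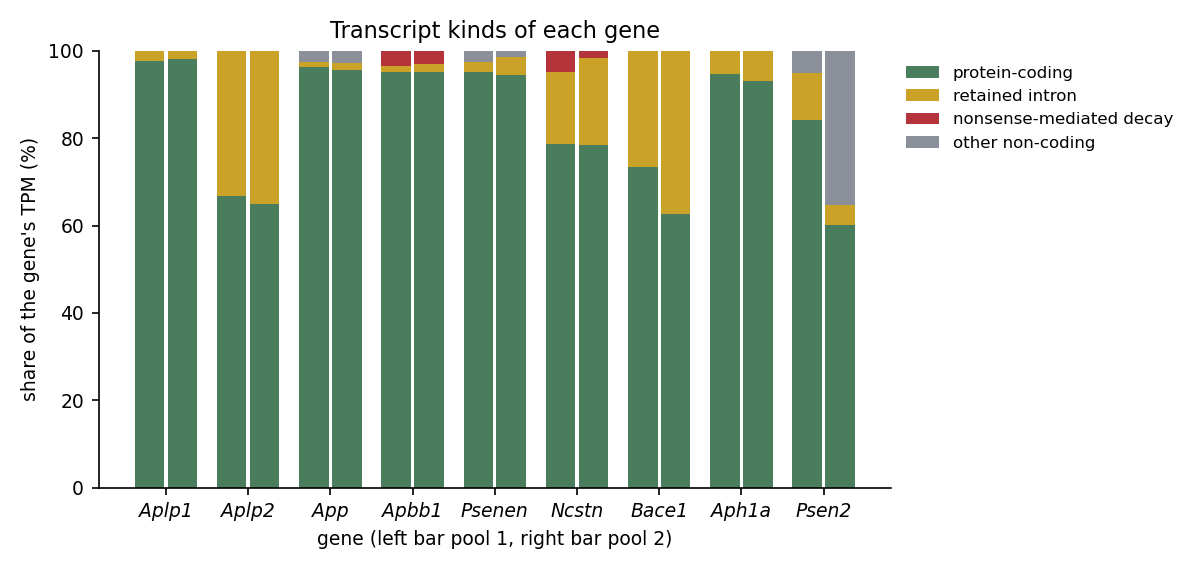
Share of each gene's TPM (vertical axis, %) by the annotated kind of transcript, with pool 1 as the left bar and pool 2 as the right bar of each pair. Aplp2 and Bace1 have the widest retained-intron parts, 33.3% and 35.0% for Aplp2 and 26.7% and 37.3% for Bace1, and the Psen2 bars differ most between the pools.

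Neighbouring genes limit some of these levels, because the sources used here do not say whether strand was used in counting. Exons of Bace1 overlap those of Rnf214 on the opposite strand over 15.4% of its exonic bases, of Gm49338 over 15.0% and of Gm16536 over 2.13%. Aph1a shares 12.9% with Car14, Psenen 9.33% with U2af1l4 and 8.71% with Gm49396, and Ncstn 4.91% with Copa, a coatomer subunit that itself read 173 TPM in pool 1 against 156 TPM in pool 2. App shares 0.869% with Gm49227, at 0.05 TPM in pool 1 against 0.36 TPM in pool 2. Exons of Aplp1, Aplp2, Psen2 and Apbb1 overlapped no exon of another gene. The effect of these overlaps on the levels was not tested.

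Between the pools, 0 of 9 genes differed by more than 1.5-fold in TMM-normalised counts, beside 7.09% of the 16151 genes whose TPM averaged 1 or more and 1.2% of the 9495 genes whose TPM averaged 10 or more, a level that 8 of the 9 reached. No call could be tested with 1 library per pool. The median log2 ratio of pool 1 over pool 2 was 0.07 for the 9 genes and 0.01 for all genes, and the median size of the ratio was 0.07 for the 9 genes, 0.11 for all genes and 0.08 for genes averaging 10 TPM or more, so the 9 genes were about as close between the pools as genes of like level. Aplp1 had the largest ratio at 0.16, followed by Apbb1 and Aplp2 at 0.12 each, and for these 3 genes the counting interval of the ratio lay above no difference (for Aplp1 a fold of 1.12, exact 95% interval 1.08 to 1.15). Such intervals treat PCR copies as independent reads and may be too narrow. App stood at -0.04, a fold of 0.972 with an interval of 0.943 to 1.00. Psen2, with the fewest counts, stood at 0.11 with the widest interval, a fold of 0.874 to 1.33. TPM gave the other sign for Psen2, Bace1, Aph1a and Ncstn, with ratios of 0.813 for Psen2 and 0.856 for Aph1a. The erythroid markers given above were lower in pool 1 than in pool 2, and their part in these ratios was not tested.

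**Figure D5:**
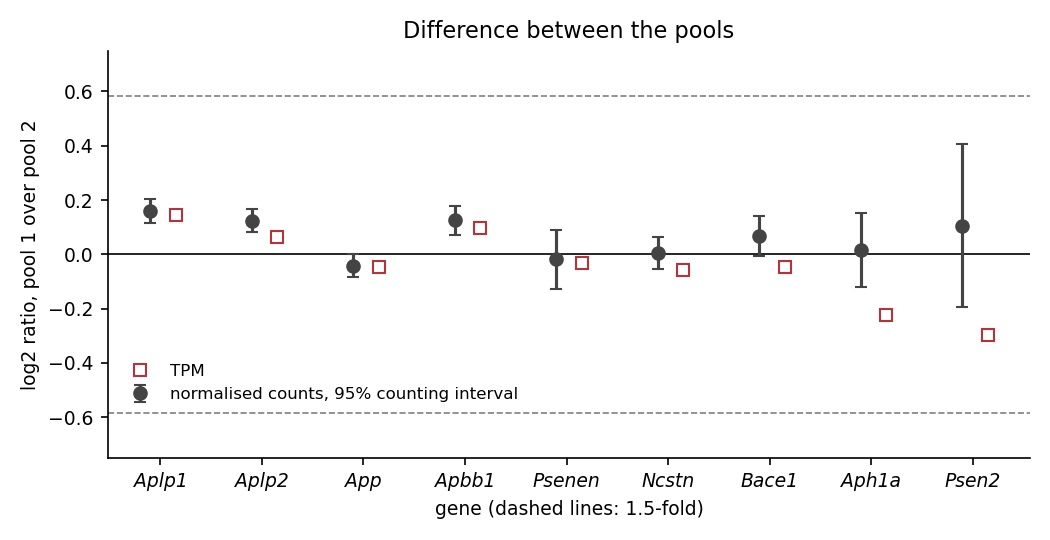
Log2 ratio of pool 1 over pool 2 for each gene, from TMM-normalised counts with exact 95% counting intervals (points) and from TPM (squares), with dashed lines at 1.5-fold. All 9 points lie within the dashed lines, Aplp1 is highest at 0.16, and Psen2 has the widest interval.

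Of the 48 pathway genes, 1 was past 1.5-fold by counts, beside the 7.09% of all genes: Bace2, with 38 counts in pool 1 and 79 in pool 2, although its TPM was about equal. The median log2 ratios of the lists ran from 0.04 in the secretase and adaptor paralogues, the alpha-secretase genes and the cytosolic adaptors, through 0.08 in assembly and trafficking and 0.12 in the other substrates, to 0.23 in the secreted or surface partners, beside 0.01 for all genes.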

How the data were processed

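PolyA+ RNA-seq of 2 forebrain pools was used, through 8 deposited gene and transcript tables for mm10 with GENCODE M21 (main) and M4 (alternative). Per the file headers, the authors gave an expected count for each gene and each transcript, unnormalised, in which a model divides shared reads. The deposited TPM and FPKM values were scaled by the authors by effective length, which was transcript length less 99 bases, and by library. The deposited posterior mean TPM, posterior mean count and its SD were treated as a score. For the aligner, the quantifier and the use of strand, the sources used here give nothing.

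All 55536 M21 gene identifiers matched the GENCODE M21 annotation of GRCm38, from which symbols, biotypes, exons and sequences were read. Per-pool levels, mean and SD were computed, and detection meant a TPM of at least 1 in both pools. Optional exons were those that some protein-coding transcripts splice in and others skip between the same neighbouring exons. The Kunitz exon was recognised by its translated cysteine pattern. Shares are of the TPM of protein-coding transcripts that cover both neighbours. Expected counts were rounded and scaled with edgeR 4.0.16 (TMM over the 19063 genes averaging 10 or more counts, prior count 1), with DESeq2 1.42.0 size factors and spike-in totals as alternatives, and the ratio step was tested on simulated data. No test between groups exists in a design of 1 group. Intervals are exact binomial (Clopper-Pearson, 95%), floors are 3 counts, and both cover counting error at most. They treat reads as independent. PCR copies carried no molecular identifiers, so the intervals may be too narrow even for counting error. Python 3.11.15 (pandas 2.3.3, scipy 1.17.1, numpy 2.4.6, matplotlib 3.10.9) and R 4.3.3 were used.

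The members and lists were chosen with earlier results of these data known. All 9 members were named, any gene of a list of 10 or fewer, the 4 highest and 2 lowest of a longer list, App and Aplp2 transcripts with at least 2% of the gene's TPM, and the leading transcript of other members. The text says where another was picked later. One further gene of the paralogue list is not reported here.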

Additional observations from a re-analysis of the deposited data

How the results depend on the processing

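Values of the 9 genes came from 2 pools of 1 group, so each SD rests on 1 difference, and transcript shares depend on how the authors' model divided shared reads. No paired analysis was possible because there is only 1 group. The median level of the members, 112 TPM, was 121 TPM in the older annotation, 122 TPM from FPKM rescaled to the TPM total and 106 TPM over protein-coding transcripts. The FPKM rescaling raised all 9 genes by nearly the same factor. It left the App share of the family at 27.6%, so it says nothing about the relation between the genes. The App share of its family, 27.6%, was 30.6% in the older annotation, 30.8% over protein-coding transcripts and 33.2% by expected counts, which are not corrected for length. By expected counts, the App exon after the Kunitz exon was at 47.7%, the App exon near the membrane at 85.4% (86.5% by posterior mean TPM) and the Apbb1 microexon at 84.9%. The Aplp2 exons depended most on the annotation: in M4 the Kunitz exon was at 58.0% and the short exon at 42.0%, against 48.4% and 22.6% in M21, and the short exon was at 39.8% with the partial transcript counted. The M4 values are complements of each other, so they describe a single split between forms and not separate rates of inclusion. App has 1 transcript in the M4 tables, so its shares were not computed there. The median log2 ratio between the pools, 0.07, was -0.048 by TPM (all genes -0.02) and -0.10 with spike-in scaling (all genes -0.16), so its sign depends on the scaling. No setting put a member past 1.5-fold.

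Leaving out either pool gave a median level of 111 to 113 TPM, 9 of 9 genes detected, and an App family share of 26.5% to 28.6%. App shares ran over 20.2% to 22.6%, 41.1% to 45.4% and 85.5% to 85.7%, Aplp2 shares over 44.2% to 52.6% and 22.3% to 22.9%, and the Apbb1 microexon over 82.4% to 82.9%. Of 36 single-gene levels under the older annotation, posterior mean TPM, rescaled FPKM or coding transcripts only, 21 moved by more than 1 SD and 15 by less. This tally includes the rescaled FPKM, where a nearly common factor was applied to all genes. Whether a level moved there depended only on the size of its SD. In M4, 46 of 47 pathway genes were detected. At a TPM of 10 in both pools, 8 of 9 members and 37 of 48 pathway genes passed, and by counts 8 of 9 members kept their leading transcript. Aside from the App exon near the membrane, posterior mean TPM moved no median level, family share or exon share of App and Aplp2 by more than the SD of the pools.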
